A study of Homo sapiens with 15 samples.

Results

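The cyclin-dependent kinase (CDK) inhibitor genes were followed through senescent human cells labelled for knockdown of THBD, the gene of thrombomodulin. The 8 genes CDKN1A, CDKN1B, CDKN1C, CDKN2A, CDKN2B, CDKN2C, CDKN2D and CDKN3 were taken by symbol and not filtered on a measured value. Earlier results of these data were known when they were chosen. All 8 were found among 59428 gene rows of the IMR90 count table and among 59412 rows of the Huh7 table. In IMR90, a human lung fibroblast line, every library carried senescence that the treatment label ascribes to HRAS G12V, and the groups were shTHBD set 1, shTHBD set 2 and the non-targeting hairpin shNTC. In Huh7, a line from a hepatocyte-derived carcinoma, every library came from cells made senescent with palbociclib, and the groups were shTHBD (titled Palbo53925) and the non-targeting control. Each of the 5 groups held 3 libraries, 15 in all. The labels do not say what the set number in the IMR90 titles stands for, and they name no separate cultures. The p-values below therefore measure the spread between these libraries, which may be technical. The growth protocol also mentions replicative senescence by passage, without saying whether it applies to these libraries. Palbociclib itself inhibits CDK4 and CDK6, and both Huh7 groups received it.

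Total gene counts per library ran from 18256773 to 20444521 in set 1, 18366369 to 19133045 in set 2, 18682662 to 21509229 in the IMR90 control, 22479132 to 25236178 in Huh7 shTHBD and 19328182 to 20020683 in the Huh7 control. THBD stood at 37.8 ± 1.46 CPM (counts scaled by the library's total, SD, n = 3) in the libraries labelled set 1, against 18.4 ± 1.77 CPM in their control, so the targeted gene was above control there, against the label (adjusted p = 1.2e-20). In set 2 it was at 11.1 ± 0.556 CPM, below that control (adjusted p = 1.5e-12). In Huh7 the counts of THBD were 0, 0 and 0 in the shTHBD libraries and 0, 0 and 6 in the control libraries. A count of 0 allows 3 counts in a library, or 0.119 to 0.155 CPM across the Huh7 libraries, so a fall was not detectable at this depth. All 10 fibroblast markers reached 1 CPM in IMR90, and all 10 hepatocyte markers did so in Huh7. In IMR90 the hepatocyte markers APOB, TTR and FGB had 0 counts in all 9 libraries. The leukocyte marker CD3E was also at 0 counts in all 9. The description of set 2 replicate 3 names Huh7, while its other labels name IMR-90.

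CDK inhibitors restrain the kinases that carry a cell into DNA replication and division. The CIP/KIP proteins p21 (CDKN1A), p27 (CDKN1B) and p57 (CDKN1C) bind cyclin-CDK complexes, chiefly those of CDK2. The INK4 proteins p15 (CDKN2B), p16 (CDKN2A), p18 (CDKN2C) and p19 (CDKN2D) bind CDK4 and CDK6 and keep them from D-type cyclins, which leaves the retinoblastoma protein active as a brake on E2F factors. CDKN2A also encodes ARF, which binds MDM2, from another first exon and reading frame. CDKN3 is named with this family but encodes a phosphatase that removes the activating phosphate of CDK2, and its RNA is typical of dividing cells. p21 and p16 are among the usual markers of senescence.

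The count tables place CDKN1A at chr6:36676460-36687337 on the plus strand and CDKN1B at chr12:12685498-12722369 on the plus strand (IMR90 table, GRCh38). CDKN2A lies at chr9:21967752-21995301 and CDKN2B at chr9:22002903-22009305, neighbours on the minus strand. CDKN1C lies at chr11:2883213-2885775 on the minus strand, CDKN2C at chr1:50960745-50974634 on the plus strand, CDKN2D at chr19:10566460-10569059 on the minus strand and CDKN3 at chr14:54396849-54420218 on the plus strand. Every value below is a count over all annotated exons of a gene. The header of the IMR90 table gives no strand option, so the strand of a read was not used to assign it to a gene. Whether reads in exon bases shared between genes were counted or left out, and for which gene, was not tested. CDKN2A shares 593 of its exon bases (15.3%) with the antisense gene CDKN2B-AS1 in the IMR90 table and 668 bases (15.4%) in the Huh7 table. CDKN1A shares 146 bases with the antisense gene DINOL, and the other 6 inhibitor genes share none. Some other genes named below share exon bases too. In the IMR90 table CDK2 shares 14.5% with an antisense gene and 2.29% with PMEL, and CCND1 10.4% with LTO1. MDM2 shares 9.45% there with an antisense gene and 5.29% with a gene on its own strand. For most of the other genes named below, sharing was not looked up. Transcripts of p16 and of ARF are added together in the CDKN2A count.

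Promoter windows from RefSeq (GRCh38.p14), from 250 bases before to 50 bases after a transcript start, were held for 7 of the 8 genes, 10 windows in all. Windows are shown for CDKN1A, the most abundant inhibitor RNA in IMR90, and for both CDKN2A starts, whose transcripts a single count combines. Those of CDKN1B and CDKN2B are shown because both were called higher in all 3 comparisons with control, CDKN2B narrowly in set 1. That of CDKN3 is shown because it was called lower in Huh7. Capitals mark matches on either strand to any of 6 motifs. The GC box was searched as GGGCGG and the CCAAT box as CCAAT. The cell cycle homology region (CHR) was searched as TTTGAA and also, as a second spelling, TTCGAA. The E-box was searched as CACGTG, the FOXO site as GTAAACA and the TATA box as TATAAA.
CDKN1A, chr6:36678464-36678763, plus strand: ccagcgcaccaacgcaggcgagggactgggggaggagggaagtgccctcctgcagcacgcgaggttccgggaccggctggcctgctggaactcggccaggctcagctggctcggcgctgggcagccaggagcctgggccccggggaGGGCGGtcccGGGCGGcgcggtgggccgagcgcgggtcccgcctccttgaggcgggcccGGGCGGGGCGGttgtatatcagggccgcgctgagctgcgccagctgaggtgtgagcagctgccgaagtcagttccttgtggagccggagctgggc
CDKN1B, chr12:12717118-12717417, plus strand: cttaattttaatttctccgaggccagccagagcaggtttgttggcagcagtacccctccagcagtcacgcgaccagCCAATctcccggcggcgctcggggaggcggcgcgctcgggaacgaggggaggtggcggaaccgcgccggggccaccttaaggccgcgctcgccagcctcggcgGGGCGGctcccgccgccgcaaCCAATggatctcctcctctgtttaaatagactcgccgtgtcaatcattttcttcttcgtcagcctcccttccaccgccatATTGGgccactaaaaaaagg
CDKN2B, chr9:22009256-22009555, minus strand: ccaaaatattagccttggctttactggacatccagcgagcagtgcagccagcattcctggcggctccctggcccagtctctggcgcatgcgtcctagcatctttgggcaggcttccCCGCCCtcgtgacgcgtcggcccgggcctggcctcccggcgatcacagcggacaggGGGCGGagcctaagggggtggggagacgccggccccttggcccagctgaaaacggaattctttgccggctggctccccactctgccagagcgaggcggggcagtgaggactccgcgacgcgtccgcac
CDKN2A, ARF start, chr9:21995275-21995574, minus strand: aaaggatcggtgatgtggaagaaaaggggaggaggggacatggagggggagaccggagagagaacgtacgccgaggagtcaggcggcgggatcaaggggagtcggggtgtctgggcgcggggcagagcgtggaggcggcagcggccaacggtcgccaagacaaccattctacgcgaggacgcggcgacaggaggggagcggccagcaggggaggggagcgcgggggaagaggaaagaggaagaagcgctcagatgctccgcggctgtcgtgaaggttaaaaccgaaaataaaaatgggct
CDKN2A, p16 start, chr9:21974808-21975107, minus strand: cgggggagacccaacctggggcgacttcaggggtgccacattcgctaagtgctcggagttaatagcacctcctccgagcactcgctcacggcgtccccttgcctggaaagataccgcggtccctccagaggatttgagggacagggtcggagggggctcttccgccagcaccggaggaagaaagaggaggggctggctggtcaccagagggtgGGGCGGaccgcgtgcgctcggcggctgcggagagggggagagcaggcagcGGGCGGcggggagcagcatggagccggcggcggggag
CDKN3, chr14:54396757-54397056, plus strand: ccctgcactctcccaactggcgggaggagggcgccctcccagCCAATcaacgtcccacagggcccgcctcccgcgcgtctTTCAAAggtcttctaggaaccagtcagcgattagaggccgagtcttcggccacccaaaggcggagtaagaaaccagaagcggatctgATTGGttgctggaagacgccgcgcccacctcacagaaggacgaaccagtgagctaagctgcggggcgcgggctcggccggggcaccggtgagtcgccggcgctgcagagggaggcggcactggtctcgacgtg
Neighbouring or overlapping matches merge into 1 run of capitals. The CDKN1A window holds 4 GC boxes, which 45% of 35116 promoter windows of 300 bases hold at least once. CDKN1B has 3 CCAAT matches, found in 34.6% of windows, and 1 GC box. CDKN2B has 2 GC boxes, and so does the p16 start of CDKN2A, while the ARF start matches none of the words. In CDKN3, a CHR match begins at −170 from the transcript start, with CCAAT matches at −208 and −83. CHR words occur in 16.4% of windows. E-boxes (7.26% of windows), FOXO words (3.42%) and TATA words (11.5%) have no match in the 6 windows shown. A match is a run of letters and no measured binding site.

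Scaled by exon length, CDKN1A made up most of the inhibitor RNA of IMR90 and little of that of Huh7. It was 91.9% ± 0.116 (SD, n = 3) of the summed CPM per kb of the 8 genes in set 1, 89.2% ± 0.484 in set 2 and 87.7% ± 0.148 in the IMR90 control. In Huh7 its share was 1.21% ± 0.183 in shTHBD and 2.81% ± 0.366 in the control. There CDKN2B led with 55.5% ± 1.10 in shTHBD and 48.4% ± 0.794 in the control, followed by CDKN1B with 23.9% ± 0.762 in shTHBD and 23.2% ± 0.560 in the control. The summed level was 708 ± 1.79 CPM per kb in set 1 and 745 ± 10.4 CPM per kb in set 2, against 439 ± 1.08 CPM per kb in the IMR90 control. In Huh7 it was 134 ± 8.16 CPM per kb in shTHBD and 83.2 ± 2.502 CPM per kb in the control. The tables differ in the exon length of CDKN1B, 9255 bases in IMR90 and 2565 bases in Huh7. With the Huh7 length, CDKN1B would stand at 8.01 CPM per kb in set 1, 16.5 CPM per kb in set 2 and 6.002 CPM per kb in the IMR90 control. In the IMR90 table's own length these levels are 2.22, 4.56 and 1.66 CPM per kb. Cell line, senescence inducer and annotation cannot be told apart in any difference of level between IMR90 and Huh7.

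**Figure D1:**
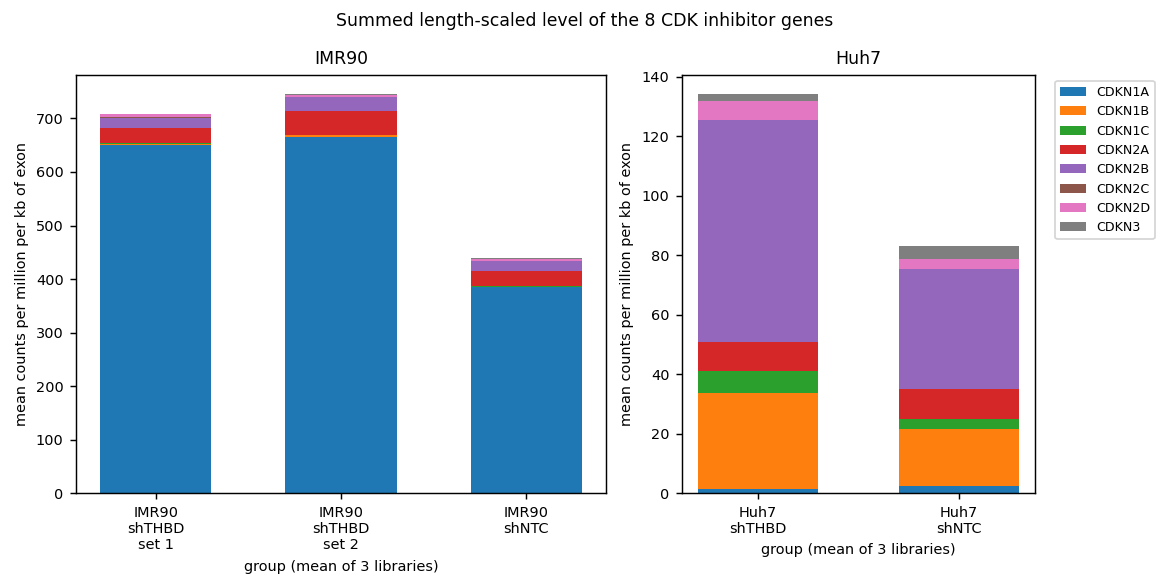
Stacked bars give the mean CPM per kb of exon of each of the 8 CDK inhibitor genes by group (3 libraries each), for IMR90 on the left and Huh7 on the right with separate axes from 0. CDKN1A fills 87.7% to 91.9% of the IMR90 bars, and CDKN2B 48.4% to 55.5% of the Huh7 bars.

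Changes were tested on the counts with edgeR's quasi-likelihood test, adjusted by Benjamini-Hochberg over all genes tested, and called at an adjusted p under 0.05. A log2 fold change is shTHBD over control and is given ± an approximate standard error. In set 1, 4 of 8 inhibitor genes were called higher and 0 lower, where 27.3% of all 15411 tested genes were called higher and 26.5% lower. In set 2 it was again 4 higher and 0 lower, beside 33.2% and 34.1% of all genes. In Huh7, 7 of the 8 were tested, 4 were called higher and 2 lower, where 25.9% of all 17474 tested genes were called higher and 27.3% lower. The median log2 fold change of the tested inhibitor genes was 0.50 in set 1, 0.58 in set 2 and 0.70 in Huh7, beside medians of all genes of −0.0019, 0.0069 and 0.002. With 7 or 8 genes, these counts describe the family and were not tested as a set. Sets 1 and 2 share their control libraries, so their results are not independent of each other. In bulk RNA, fewer cells of a kind and less RNA per cell cannot be told apart.

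**Figure D2:**
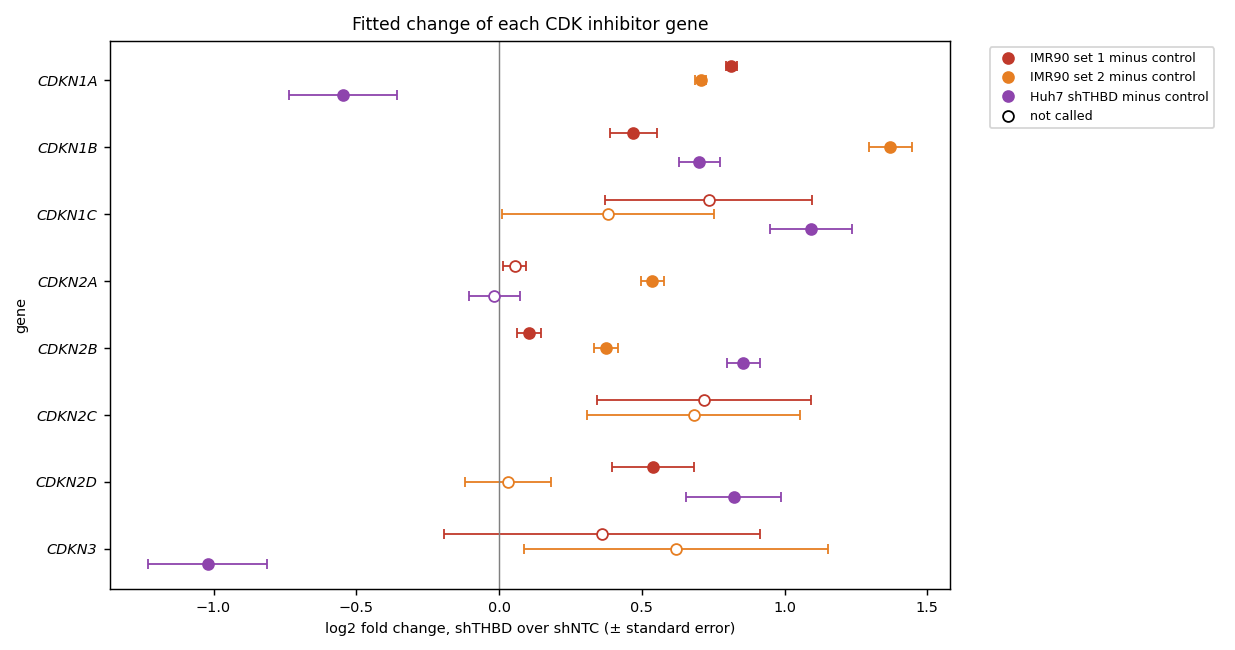
Points give the fitted log2 fold change of each CDK inhibitor gene, shTHBD over the non-targeting control, with its standard error, for IMR90 set 1, IMR90 set 2 and Huh7 (3 libraries per group). Filled points were called at an adjusted p under 0.05 and open points were not. CDKN1A lies at 0.81 and 0.71 in IMR90 and at −0.55 in Huh7, and CDKN2C in Huh7 was not tested.

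Among the CIP/KIP genes, CDKN1A (p21, induced by DNA damage) was called higher in both IMR90 sets and lower in Huh7. It had 1954, 1949.6 and 1942 CPM in set 1 and 1981, 1979 and 2011 CPM in set 2, against 1150.05, 1153 and 1152 CPM in the IMR90 control. No library of either set reached down to the control. The log2 fold change was 0.81 ± 0.0182 in set 1 (1.76-fold, adjusted p = 2.3e-49, edgeR) and 0.71 ± 0.0182 in set 2 (1.63-fold, adjusted p = 3.5e-46). In Huh7, CDKN1A was at 5.77, 5.35 and 3.83 CPM in shTHBD and 8.08, 6.49 and 6.83 CPM in the control, groups that do not overlap. The fitted difference was −0.55 ± 0.189 (adjusted p = 0.015). The Huh7 call was lost without shTHBD replicate 3 (−0.42, adjusted p = 0.06) and without control replicate 1 (−0.44, adjusted p = 0.1). CDKN1A stood at 1949 ± 6.21 CPM in set 1, 1990.4 ± 17.6 in set 2 and 1152 ± 1.53 in the IMR90 control, and at 4.98 ± 1.02 CPM in shTHBD Huh7 and 7.13 ± 0.836 in its control.

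CDKN1B (p27, which holds CDK2 complexes inactive in resting cells) was called higher in each of the 3 comparisons with control. It had 20.9, 21.0 and 19.7 CPM in set 1 and 39.5, 43.2 and 44.0 CPM in set 2, against 14.2, 15.95 and 16.04 CPM in the IMR90 control. Every set 2 library lay above every set 1 library, and every set 1 library above every control. The log2 fold change was 0.47 ± 0.0819 in set 1 (1.39-fold, adjusted p = 1.1e-06) and 1.37 ± 0.0755 in set 2 (2.59-fold, adjusted p = 1.3e-26). In Huh7 it had 85.4, 82.1 and 78.9 CPM in shTHBD and 47.9, 49.9 and 50.7 CPM in the control. Again no library overlapped between the groups, and the log2 fold change was 0.70 ± 0.0707 (1.63-fold, adjusted p = 3.5e-10). All of the 18 alternative fits of each IMR90 set and the 14 of Huh7 kept these 3 calls.

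CDKN1C (p57, an imprinted growth restrainer) was near 1 CPM in IMR90 and higher in Huh7. In IMR90 it averaged 1.44 ± 0.355 CPM in set 1, 1.24 ± 0.664 CPM in set 2 and 0.894 ± 0.0442 CPM in the control, from 84, 70 and 53 counts summed over 3 libraries. Neither set passed the test, at 0.73 ± 0.362 in set 1 (adjusted p = 0.08) and 0.38 ± 0.371 in set 2 (adjusted p = 0.37). Without set 1 replicate 2 the set 1 difference passed, at 0.90 (adjusted p = 0.0495). In Huh7, CDKN1C had 22.4, 17.04 and 15.04 CPM in shTHBD and 8.59, 8.94 and 7.45 CPM in the control. The lowest shTHBD library lay above the highest control, and the log2 fold change was 1.09 ± 0.143 (2.13-fold, adjusted p = 7.2e-08).

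**Figure D3:**
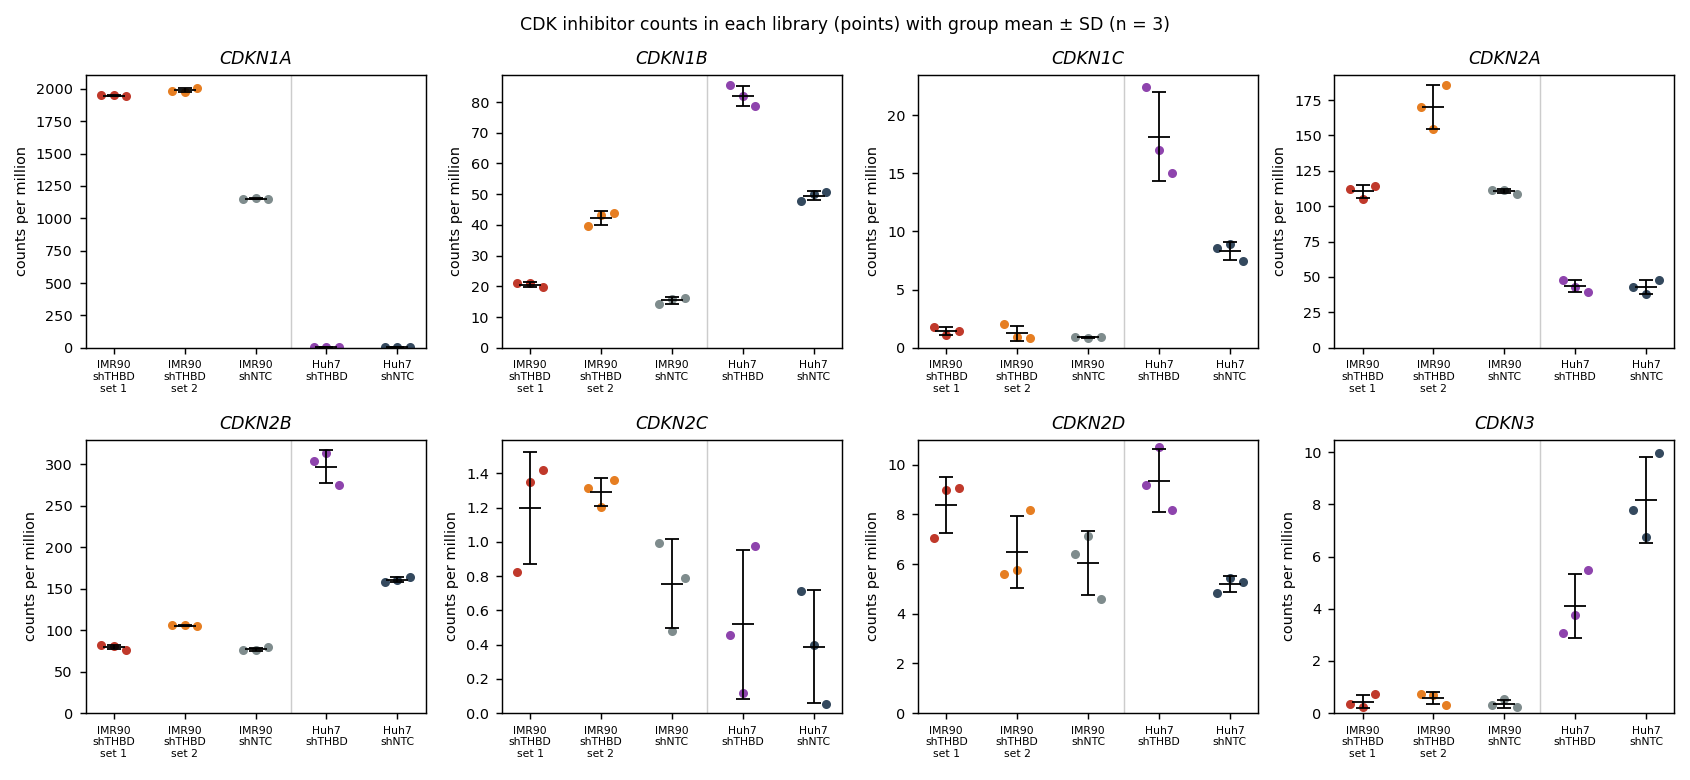
Each panel gives 1 CDK inhibitor gene in CPM on a linear axis from 0, with a point per library and the mean ± SD of 3 libraries per group. CDKN1B and CDKN2B are high in shTHBD Huh7 (82.1 and 297 CPM on average), and CDKN1A is near 1949 CPM in set 1 and 4.98 CPM in shTHBD Huh7.

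Among the INK4 genes, CDKN2B (p15, a target of TGF-beta signalling) was called higher in all 3 comparisons with control, narrowly so in set 1. It had 304, 314 and 275 CPM in shTHBD Huh7, against 158, 161 and 164 CPM in the Huh7 control. Each shTHBD library was well above each control, and the log2 fold change was 0.86 ± 0.0571 (1.81-fold, adjusted p = 1.9e-14). In IMR90 it had 81.5, 80.7 and 76.5 CPM in set 1 and 106, 106 and 105 CPM in set 2, against 75.5, 75.9 and 79.1 CPM in the control. Set 2 stood apart from the control (0.37 ± 0.0411, adjusted p = 9e-13), while the libraries of set 1 overlapped with it. The set 1 difference of 0.10 ± 0.0422 passed narrowly (adjusted p = 0.032). It was not called in 7 of 18 alternatives, whose adjusted p ranged from 0.017 to 0.34 over all 18. Among these were the fits without set 1 replicate 1 (0.09, adjusted p = 0.11), without set 1 replicate 2 (0.09, 0.094), without control replicate 1 (0.09, 0.12) and without control replicate 2 (0.09, 0.096).

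CDKN2A (p16 and ARF) was called higher in set 2. It had 112, 105 and 114 CPM in set 1 and 170.2, 154 and 186 CPM in set 2, against 112, 111 and 109 CPM in the IMR90 control. Set 2 lay wholly above the control (0.54 ± 0.0403, adjusted p = 9.4e-20), whereas set 1 spanned it (0.05 ± 0.0418, adjusted p = 0.28). In Huh7, CDKN2A had 47.6, 43.2 and 39.1 CPM in shTHBD and 42.9, 38.1 and 47.8 CPM in the control, which overlap (−0.02 ± 0.0891, adjusted p = 0.89). The antisense neighbour CDKN2B-AS1, part of whose exons CDKN2A shares, stood at 0.435 ± 0.245 CPM in set 1, 0.690 ± 0.132 CPM in set 2 and 0.433 ± 0.108 CPM in the IMR90 control. In Huh7 it stood at 10.9 ± 0.552 CPM in shTHBD and 10.4 ± 0.351 CPM in the control. It did not pass the test in set 1 (adjusted p = 0.97), set 2 (0.3) or Huh7 (0.83).

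CDKN2D (p19) and CDKN2C (p18) were the scarce INK4 genes. CDKN2D had 7.07, 8.99 and 9.05 CPM in set 1 and 5.58, 5.75 and 8.17 CPM in set 2, against 6.39, 7.12 and 4.60 CPM in the IMR90 control. The fitted difference passed in set 1 (0.54 ± 0.145, adjusted p = 0.0011), although the lowest set 1 library lay just below the highest control, and it did not pass in set 2 (0.03 ± 0.151, adjusted p = 0.87). In Huh7, CDKN2D had 9.17, 10.7 and 8.19 CPM in shTHBD and 4.83, 5.44 and 5.28 CPM in the control, with no overlap (0.82 ± 0.167, 1.77-fold, adjusted p = 9.1e-05). CDKN2C averaged 1.196 ± 0.326 CPM in set 1, 1.29 ± 0.0821 CPM in set 2 and 0.756 ± 0.259 CPM in the IMR90 control. Neither set passed (0.72 ± 0.374 in set 1 and 0.68 ± 0.373 in set 2, adjusted p = 0.099 in both). Without set 1 replicate 1 the set 1 difference passed, at 0.92 (adjusted p = 0.0468). In Huh7 its counts were 11, 3 and 22 in shTHBD and 14, 8 and 1 in the control, too few to enter the test.

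CDKN3, the CDK2 phosphatase, was called lower in Huh7. It had 3.07, 3.76 and 5.47 CPM in shTHBD Huh7, against 7.78, 6.74 and 9.99 CPM in the Huh7 control. The highest shTHBD library lay below the lowest control, and the log2 fold change was −1.02 ± 0.208 (adjusted p = 9.7e-05). In IMR90 it averaged 0.437 ± 0.260 CPM in set 1, 0.581 ± 0.222 CPM in set 2 and 0.361 ± 0.157 CPM in the control, from 26, 33 and 21 counts. Neither set passed the test (0.36 ± 0.554, adjusted p = 0.61 in set 1, and 0.62 ± 0.533, adjusted p = 0.31 in set 2).

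Ordered by mean CPM over the 5 groups, CDKN1B, CDKN2B and CDKN1C were highest in Huh7 shTHBD, next in the Huh7 control and lower in IMR90. For CDKN1B each group's range was clear of the next. For CDKN2B only set 1 and the IMR90 control, its lowest groups, overlapped, and for CDKN1C the 3 IMR90 groups overlapped. CDKN1A and CDKN2A ran the other way, with all 3 IMR90 groups above both Huh7 groups. CDKN2D overlapped between each pair of neighbours in the order. CDKN3 was highest in the Huh7 control, next in Huh7 shTHBD, and its 3 IMR90 groups overlapped. The fibroblast markers summed to 4745 to 4836 CPM in set 1 and 12643 to 12823 CPM in set 2, against 6490.1 to 6581 CPM in the IMR90 control. The hepatocyte markers summed to 5129.9 to 5318 CPM in shTHBD Huh7 and 7296 to 7535 CPM in its control. Fibroblast markers were also measured in Huh7, at 1683 to 1745 CPM in shTHBD and 1059 to 1108 CPM in the control, and hepatocyte markers in IMR90, at 132 to 142 CPM in set 1, 11.7 to 13.2 CPM in set 2 and 15.9 to 17.9 CPM in the control. In set 1 that sum was nearly all SERPINA1, which averaged 134 CPM there, while APOB, TTR and FGB were at 0. The part of these marker sums in the results was not tested.

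The libraries labelled set 1 and set 2 were set against each other, because the titles number them apart and THBD moved in opposite directions. Here 2 inhibitor genes were called higher in set 1 and 3 lower, where 33.9% of all genes were called higher and 35.6% lower. CDKN1B was lower in set 1 by the widest margin (−0.90 ± 0.0726, adjusted p = 2.6e-18), then CDKN2A (−0.48 ± 0.0403, adjusted p = 1.3e-17) and CDKN2B (−0.27 ± 0.041, adjusted p = 2.1e-08). CDKN2D was higher in set 1 (0.51 ± 0.144, adjusted p = 0.0014). CDKN1A was called higher in set 1 (0.11 ± 0.0179, adjusted p = 2.2e-07) although its CPM was lower in all 3 set 1 libraries, and the direction turned with the scaling. Scaled by library totals alone the difference was −0.03 (adjusted p = 0.11), and with upper-quartile scaling 0.0083 (adjusted p = 0.69). The median log2 difference of all genes between the sets was −0.0305 with the scaling used here (trimmed mean of M-values) and −0.1694 with library totals, and the sign of the CDKN1A difference depends on that choice.

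Whether an inhibitor gene responded differently in the lines was tested as the Huh7 effect minus each IMR90 effect, in 1 fit of both tables. Both contrasts share the Huh7 effect and the IMR90 control. That fit gave each gene 1 spread over both lines. The variation between replicates (biological coefficient of variation) was 3.13% in the IMR90 fit, 8.2% in the Huh7 fit and 5.48% in the joint fit. Errors and p-values of these contrasts may therefore be too small on the Huh7 side. For CDKN1A the Huh7 comparison alone had a standard error of 0.189, above the joint 0.106. Against set 1, 2 of 8 genes were called higher in Huh7 and 1 lower, where 23.6% of all 16682 genes were called higher and 23.9% lower. Against set 2, 2 were called higher and 4 lower, where 22.8% of all genes were called higher and 21.2% lower. The effect on CDKN1A was lower in Huh7 than in set 1 (a log2 difference of −1.34 ± 0.106, adjusted p = 1.5e-13) and than in set 2 (−1.22 ± 0.106, adjusted p = 2.6e-12). That on CDKN2B was higher in Huh7 than in set 1 (0.77 ± 0.0652, adjusted p = 7.8e-13) and than in set 2 (0.51 ± 0.0647, adjusted p = 2.2e-08). That on CDKN2A was lower in Huh7 than in set 2 (−0.52 ± 0.0941, adjusted p = 1.4e-05) and was not called against set 1 (−0.05 ± 0.0947, adjusted p = 0.72). CDKN2D gave 0.82 ± 0.241 against set 2 (adjusted p = 0.0049) and 0.30 ± 0.238 against set 1 (adjusted p = 0.31). CDKN1C and CDKN2C were called in neither contrast. CDKN2C had too few counts for the Huh7 test and gave −0.34 ± 0.816 against set 1 and −0.30 ± 0.816 against set 2. Its contrasts could hardly show a difference. CDKN1C gave 0.38 ± 0.369 against set 1 (adjusted p = 0.43) and 0.74 ± 0.377 against set 2 (adjusted p = 0.11), and the set 2 difference passed without set 2 replicate 1 (1.26, adjusted p = 0.0086).

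For CDKN1B against set 1 and for CDKN3, the call depended on the libraries kept. The effect on CDKN1B was lower in Huh7 than in set 2 (−0.64 ± 0.0995, adjusted p = 1.2e-06) in all 23 alternatives. Its excess over set 1 (0.25 ± 0.103, adjusted p = 0.044) was not called in 13 of 23 alternatives. Of the 15 fits that left out 1 library, 10 lost that call. They were those without set 1 replicate 1 or 3, set 2 replicate 1 or 2, IMR90 control replicate 2 or 3, Huh7 shTHBD replicate 1, or any Huh7 control library, at 0.22 to 0.26 and an adjusted p of up to 0.13. For CDKN3 the difference from set 2 was −1.62 ± 0.558 (adjusted p = 0.017). It was lost without set 2 replicate 1 (−1.42, adjusted p = 0.072), without set 2 replicate 2 (−1.49, 0.057) and without IMR90 control replicate 3 (−1.37, 0.067). The difference of CDKN3 from set 1 was −1.37 ± 0.584 (adjusted p = 0.052). It passed in 8 of 23 alternatives, 6 of them without 1 library, namely set 1 replicate 1 or 2, set 2 replicate 3, IMR90 control replicate 2, Huh7 shTHBD replicate 3 or Huh7 control replicate 2.

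The kinases that the inhibitors bind moved in different directions. CDK2, the kinase of S-phase entry, was at 23.2 ± 1.61 CPM in set 1 and 5.60 ± 0.497 CPM in set 2, against 19.5 ± 0.892 CPM in the IMR90 control. It was called higher in set 1 (0.30 ± 0.0843, adjusted p = 0.0016) and lower in set 2 (−1.88 ± 0.105, adjusted p = 2.7e-26). In Huh7 it was at 8.26 ± 1.18 CPM in shTHBD and 40.4 ± 2.28 CPM in the control (−2.32 ± 0.111, adjusted p = 3.5e-18). CDK6 was at 268 ± 3.25 CPM in set 1 and 82.7 ± 6.82 CPM in set 2, against 83.3 ± 3.57 CPM in the IMR90 control. That was a rise in set 1 (1.74 ± 0.0376, adjusted p = 3.5e-50). The set 2 difference (−0.09 ± 0.0419, adjusted p = 0.045) lost its call under 6 alternatives of scaling, test, filter or libraries entered, and without set 2 replicate 3 (−0.03, adjusted p = 0.5), IMR90 control replicate 2 (−0.07, 0.19) or IMR90 control replicate 3 (−0.10, 0.061). In Huh7, CDK6 rose to 129 ± 3.14 CPM in shTHBD, against 95.4 ± 2.86 CPM in the control (0.41 ± 0.0639, adjusted p = 1.6e-06). CDK4 was at 57.8 ± 2.97 CPM in set 1, 74.5 ± 1.36 CPM in set 2 and 77.2 ± 2.68 CPM in the IMR90 control, and 44.2% of its exon bases are shared with TSPAN31. It was called lower in set 1 (−0.36 ± 0.0467) and in set 2 (−0.14 ± 0.0455). The set 2 call was lost with library totals (−0.05, adjusted p = 0.31) and with upper-quartile scaling (−0.07, 0.18). In Huh7, CDK4 rose to 116 ± 5.88 CPM in shTHBD, against 91.4 ± 6.17 CPM in the control (0.32 ± 0.0651, adjusted p = 9.3e-05).

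Cyclin D1 was called lower in all 3 comparisons. Its gene, CCND1, was at 1190.3 ± 7.92 CPM in set 1 and 451 ± 4.57 CPM in set 2, against 1996 ± 21.5 CPM in the IMR90 control (−0.69 ± 0.0191 in set 1 and −2.23 ± 0.0204 in set 2, adjusted p = 1.3e-43 and 8.3e-75). In Huh7 it was at 223 ± 9.63 CPM in shTHBD and 563 ± 5.06 CPM in the control (−1.36 ± 0.0567, adjusted p = 1e-19). RB1, the retinoblastoma gene, was called higher in all 3, at 0.48 ± 0.0499 in set 1, 0.63 ± 0.049 in set 2 and 0.40 ± 0.0763 in Huh7. Of the 5 INK4 target kinases and D cyclins, 1 was higher and 2 lower in set 1, 1 higher and 3 lower in set 2, and 3 higher and 2 lower in Huh7. Of all genes, 27.3% were called higher and 26.5% lower in set 1, 33.2% and 34.1% in set 2 and 25.9% and 27.3% in Huh7. With library totals the set 1 count was 4 lower, and the set 2 count 2 higher and 1 lower. CCND2, named after its values were seen, was called higher in set 2 (1.23 ± 0.0846) and in Huh7, where it stood at 0.581 ± 0.0921 CPM in shTHBD and 0.0339 ± 0.0587 CPM in the control. CCND3 was called lower in Huh7 (−0.65 ± 0.139, adjusted p = 0.00017) and gave −0.05 ± 0.0402 in set 1 and 0.01 ± 0.0398 in set 2 (adjusted p = 0.29 and 0.89).

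**Figure D4:**
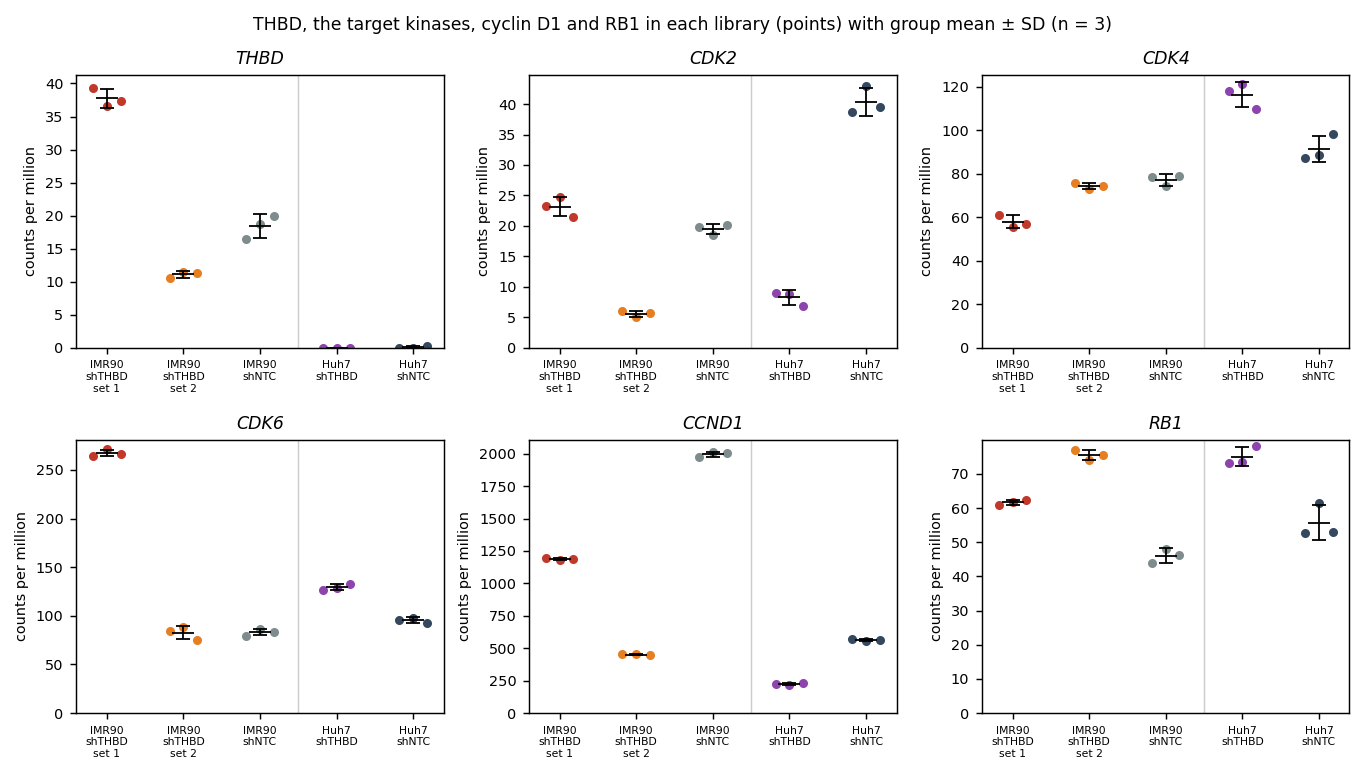
Panels give THBD, the kinase genes CDK2, CDK4 and CDK6, CCND1 (cyclin D1) and RB1 in CPM on linear axes from 0, with a point per library and the mean ± SD of 3 libraries per group. CDK2 is low in set 2 and in shTHBD Huh7 (5.60 and 8.26 CPM), CDK6 is high in set 1 (268 CPM), and THBD is above its control in set 1.

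All 18 E2F target genes of S phase were called lower in Huh7 and 0 higher (median log2 fold change −1.51, beside 0.002 for all genes, of which 27.3% were called lower). Among them MCM5, a subunit of the replicative helicase, was at 5.24 ± 1.64 CPM in shTHBD and 42.5 ± 3.08 CPM in the control (−3.04 ± 0.136, adjusted p = 7e-19). CDC6, a helicase loader, was at 5.89 ± 0.724 CPM in shTHBD and 32.5 ± 2.78 CPM in the control (−2.49 ± 0.126, adjusted p = 1.7e-17). Of 7 tested CIP/KIP target kinases and cyclins, 6 were lower and 0 higher in Huh7 (median −2.06), among them CCNB2, a mitotic cyclin (−2.43 ± 0.144, adjusted p = 9.9e-16). CCNE2 was the gene not called (0.08). CCNE1, the cyclin E1 partner of CDK2, was at −0.39 ± 0.132 there (adjusted p = 0.013).

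In IMR90, 5 of the 18 E2F targets were higher and 2 lower in set 1 (median 0.17) and 4 higher and 8 lower in set 2 (median −0.26), beside medians of all genes of −0.0019 and 0.0069. Of all genes, 27.3% were called higher and 26.5% lower in set 1, and 33.2% and 34.1% in set 2. The set 1 counts turned to 3 higher and 5 lower with library totals. Without set 1 replicate 2, 4 were lower in set 1, and without set 1 replicate 3, 1 was lower. RRM2, a subunit of ribonucleotide reductase, was higher in set 1 (0.94 ± 0.131, adjusted p = 4e-09) and lower in set 2 (−1.93 ± 0.179, adjusted p = 1.3e-15). MCM4, another helicase subunit, was lower in both (−0.39 ± 0.0867 in set 1 and −1.36 ± 0.095 in set 2). Of 7 CIP/KIP targets, 3 were higher and 0 lower in set 1 and 0 higher and 3 lower in set 2. CCNE1 was higher in set 1 (0.66 ± 0.104, adjusted p = 1.1e-07) and lower in set 2 (−2.05 ± 0.139, adjusted p = 6.8e-22). MCM5 was also higher in set 1 (0.55 ± 0.12) and lower in set 2 (−0.75 ± 0.136), and CDC6 lower in both (−0.55 ± 0.202 in set 1 and −1.41 ± 0.219 in set 2). In the RB and E2F family, 6 of 15 were higher and 0 lower in set 1, 4 higher and 6 lower in set 2, and 4 of 17 higher and 6 lower in Huh7. Of all genes tested in Huh7, 25.9% were called higher and 27.3% lower. E2F1, an activating factor of the family, gave −0.07 ± 0.137 in set 1 (adjusted p = 0.68) and was lower in set 2 (−1.50 ± 0.159) and in Huh7 (−2.06 ± 0.111), and E2F6, a repressor of it, was at 0.50 ± 0.0817 in set 1, −0.92 ± 0.0929 in set 2 and −0.60 ± 0.127 in Huh7. TFDP2, a partner of E2F factors, was higher in set 2 (1.15 ± 0.07, adjusted p = 2.2e-24) and Huh7 (0.39 ± 0.0662), and gave −0.10 ± 0.0784 in set 1 (adjusted p = 0.32).

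**Figure D5:**
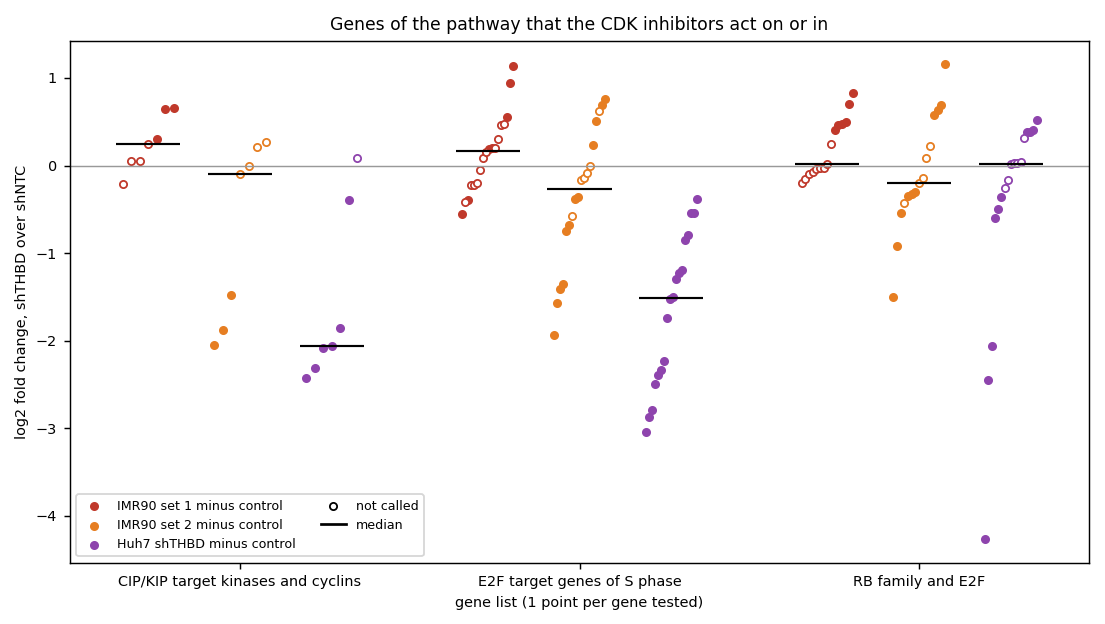
Points give the fitted log2 fold change, shTHBD over the non-targeting control, of each tested gene in 3 lists, for IMR90 set 1, IMR90 set 2 and Huh7, with filled points called at an adjusted p under 0.05 and a line at the median. The medians of the E2F targets are 0.17, −0.26 and −1.51, and those of the RB and E2F family 0.02, −0.20 and 0.02.

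Of the genes named from a list of other DNA damage response genes, BTG2 and MDM2 were called higher in all 3 comparisons. BTG2, an antiproliferative gene, rose by 1.01 ± 0.0754 in set 1, 2.68 ± 0.0654 in set 2 and 1.11 ± 0.0916 in Huh7. SESN1, which responds to oxidative stress, rose by 1.00 ± 0.0986 in set 1 and 1.88 ± 0.091 in set 2, and gave 0.15 ± 0.133 in Huh7 (adjusted p = 0.35). DDB2, of DNA damage recognition, was lower in set 1 (−0.34 ± 0.0876), higher in set 2 (0.48 ± 0.0806) and lower in Huh7 (−2.08 ± 0.199, adjusted p = 1.1e-10). TNFRSF10B, a death receptor gene, was higher in set 1 (0.63 ± 0.0234, adjusted p = 5e-36), lower in set 2 (−1.55 ± 0.0258, adjusted p = 3.8e-58) and lower in Huh7 (−1.52 ± 0.0572, adjusted p = 9.2e-21). MDM2, a ubiquitin ligase gene to whose protein ARF binds, was higher in set 1 (0.62 ± 0.0388), set 2 (1.13 ± 0.0374) and Huh7 (0.26 ± 0.0836, adjusted p = 0.0086). The Huh7 call of MDM2 was lost without shTHBD replicate 3 (0.13, adjusted p = 0.15) and without control replicate 3 (0.20, 0.071).

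Regulators of the INK4/ARF locus, Polycomb subunits among them, moved in both directions, with more called higher than lower in all 3 comparisons. The list was not tested as a set. Of 21, 10 were higher and 3 lower in set 1, 13 higher and 3 lower in set 2, and 14 higher and 4 lower in Huh7 (medians 0.24, 0.27 and 0.40, beside −0.0019, 0.0069 and 0.002 for all genes). Of all genes, 27.3% were called higher and 26.5% lower in set 1, 33.2% and 34.1% in set 2, and 25.9% and 27.3% in Huh7. Without set 2 replicate 2, 1 was lower in set 2. ETS1, an activator of the p16 promoter, was higher in all 3 (1.60 ± 0.032, 1.24 ± 0.0323 and 0.86 ± 0.13 in set 1, set 2 and Huh7). CBX7, a Polycomb subunit that represses the locus, was lower in set 1 (−0.68 ± 0.144) and higher in set 2 (1.03 ± 0.12) and in Huh7 (1.24 ± 0.141). KDM6A, a demethylase of the Polycomb mark, was higher in set 1 (0.31 ± 0.0745), set 2 (0.38 ± 0.0736) and Huh7 (1.40 ± 0.0598). ID2, an inhibitor of basic helix-loop-helix factors, gave −0.26 ± 0.149 in set 1 (adjusted p = 0.13), was higher in set 2 (1.18 ± 0.128) and lower in Huh7 (−0.47 ± 0.0653). Of the transcription regulators of the CIP/KIP genes and CDKN2B, 7 of 17 were higher and 3 lower in set 1, 5 higher and 9 lower in set 2, and 13 of 18 higher and 3 lower in Huh7, to be read against the same shares of all genes. TGFB1, a ligand that induces CDKN2B, gave −0.03 ± 0.0288 in set 1 (adjusted p = 0.43) and was lower in set 2 (−1.39 ± 0.0312) and Huh7 (−0.87 ± 0.0708). TGFB2, another such ligand, was higher in set 2 (1.22 ± 0.103) and Huh7 (0.74 ± 0.0663). In set 1, TGFB2 was higher too (0.40 ± 0.112), a call lost without set 1 replicate 2 (0.24, adjusted p = 0.09). KLF4, which activates CDKN1A, was lower in set 1 (−1.48 ± 0.233, adjusted p = 1.2e-07), gave −0.23 ± 0.202 in set 2 (adjusted p = 0.31) and was higher in Huh7 (0.99 ± 0.164).

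Genes for the turnover of CIP/KIP proteins were 5 higher and 2 lower of 15 in set 1, 8 higher and 4 lower in set 2, and 5 higher and 7 lower in Huh7, beside 27.3% and 26.5% of all genes in set 1, 33.2% and 34.1% in set 2 and 25.9% and 27.3% in Huh7 called higher and lower. Without set 1 replicate 2 or 3, or control replicate 1 or 3, 1 was lower in set 1, and without Huh7 control replicate 3, 3 were higher in Huh7. SKP2, the ubiquitin ligase subunit that marks p27 for degradation, was at 16.2 ± 0.839 CPM in set 1 and 43.3 ± 2.01 CPM in set 2, against 8.60 ± 0.889 CPM in the IMR90 control. Its log2 fold changes were 0.97 ± 0.0959 in set 1 and 2.25 ± 0.0855 in set 2, and in Huh7 it was lower (−0.26 ± 0.0556, adjusted p = 0.00017). FBXO22, another ligase subunit, was higher in set 2 (0.84 ± 0.0494) and did not pass in set 1 (0.07, adjusted p = 0.23) or Huh7 (0.02, 0.84). DTL, which directs p21 to degradation, and CDC20, a mitotic ligase subunit, were lower in Huh7 (−2.52 ± 0.154 and −2.63 ± 0.129). In IMR90, DTL was higher in set 1 (1.19 ± 0.406) and gave −0.29 ± 0.468 in set 2 (adjusted p = 0.59), and CDC20 gave 0.02 ± 0.202 in set 1 (adjusted p = 0.93) and was lower in set 2 (−0.62 ± 0.214). Among genes that neighbour the inhibitors in the genome, 3 of 15 were higher and 5 lower in set 1, 6 higher and 5 lower in set 2, and 3 of 18 higher and 6 lower in Huh7, counts near those same shares of all genes. SLC22A18, in the imprinted cluster of CDKN1C, was lower in set 1 (−0.50 ± 0.0917), set 2 (−1.30 ± 0.0987) and Huh7 (−1.17 ± 0.0866). H19, an imprinted RNA of the wider region, was at 22.2 ± 2.54 CPM in shTHBD Huh7 and 89.2 ± 6.12 CPM in the control (−2.04 ± 0.0882), while CDKN1C was higher there. GMFB, near CDKN3, was higher in set 1 (0.36 ± 0.0371), set 2 (1.32 ± 0.035) and Huh7 (0.91 ± 0.0585). AP1M2, near CDKN2D, was lower in Huh7 (−1.72 ± 0.103).

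Across all 15 libraries, after centring log2(CPM + 1) within each line, the inhibitor genes were compared in pairs. These correlations share libraries and depth between genes and are given as a description. The 15 libraries are replicates of 5 groups and not 15 independent points, so differences between groups enter each r. CDKN1B followed CDKN2B (Pearson r = 0.82) and CDKN2A (0.80), while CDKN1A gave 0.47 with CDKN2A and −0.09 with CDKN2B. CDKN3 ran against CDKN1C (−0.67), CDKN2B (−0.62) and CDKN2D (−0.61). Summed over 3 libraries, CDKN3 had only 26, 33 and 21 counts in set 1, set 2 and the IMR90 control, and CDKN1C 84, 70 and 53. Counting error therefore weighs on their IMR90 values, and how far each line carries these r was not tested. Among 8123 genes tested in both lines and averaging 10 CPM or more in some group of both tables, the closest to CDKN1A were TUBB2A (0.968) and TXN (0.966), and to CDKN1B PPP2CB (0.993) and CLDN12 (0.989). The closest to CDKN2B were B2M (0.990) and PDCD4 (0.989), to CDKN2A POLR2E (0.969) and MRPL21 (0.968), and to CDKN1C DNAAF5 (0.892) and GPR37 (0.887). CDKN2D was followed by JOSD1 and IRGQ (0.876 each), and CDKN3 by MSRB1 (0.894) and PAFAH1B3 (0.855).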

How the data were processed

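The authors deposited raw gene counts for every library, and they entered the tests as deposited. The submitters' processing notes name fastp, STAR, featureCounts and GRCh38. Per the file headers, the IMR90 counts came from featureCounts 2.0.1 on exons of GENCODE 38, in paired mode and with no strand option. Version, annotation and strand of the Huh7 counts: not given in the sources used here. CPM per kb used the deposited exon lengths.

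CPM is the count scaled by the library's total gene count. edgeR 4.0.16 in R 4.3.3 filtered genes (filterByExpr), scaled libraries (TMM) and ran the quasi-likelihood test, with Benjamini-Hochberg adjustment over all genes and calls under 0.05. The fits held 9 IMR90 libraries, 6 Huh7 libraries, or all 15 over 38415 shared symbols. Standard errors are approximate, from the log2 fold change and F. Groups follow the titles. Alternatives were other scalings (DESeq2 1.42.0 size factors, upper quartile, library totals), the DESeq2 test, limma 3.58.1 voom, other filters, a replicate block, 2 groups alone and leaving out each library.

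The inhibitor genes and the gene lists were chosen with earlier results of these data known. Other genes named are 9 fixed genes, up to 2 per list and line (the widest called changes with non-overlapping groups and 10 CPM or more), and the 2 closest to each inhibitor gene in correlation. Of these, 1 fixed gene, and the counts of 1 list that holds it, are not reported here. Scripts were tested on simulated data. Detection limits of 3 counts cover counting error only.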

Additional observations from a re-analysis of the deposited data

Results flagged for a closer look

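By a test of the difference itself, the effect of the shTHBD label on 3 of the 8 inhibitor genes differed between Huh7 and IMR90 set 1. Against set 2 it differed for 6 of the 8. Of all 16682 genes, 7925 were called against set 1 (23.6% higher and 23.9% lower) and 7338 against set 2 (22.8% and 21.2%). The inhibitor genes were thus called no more often than all genes against set 1, and more often against set 2. With 8 genes, neither share was tested as a set. Against set 1, the differences (Huh7 minus IMR90, log2) were −1.34 for CDKN1A, 0.25 for CDKN1B and 0.77 for CDKN2B. Against set 2, they were −1.22 for CDKN1A, −0.64 for CDKN1B, −0.52 for CDKN2A, 0.51 for CDKN2B, 0.82 for CDKN2D and −1.62 for CDKN3. CDKN1A and CDKN2B differed against both sets in the same direction, whereas CDKN1B was above set 1 and below set 2. The CDKN1B difference from set 1 was not called in 13 of 23 alternatives, and that of CDKN3 from set 2 in 3 of 23. The joint fit used 1 spread per gene over both lines, so its p-values may be too small on the Huh7 side. The lines also differ in the agent of senescence, in the deposited table and in THBD, which was above control in set 1, below it in set 2 and not measurable in Huh7. These cannot be told apart from the line.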

How the results depend on the processing

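Over 894 alternative values of the inhibitor genes in 47 results, 832 kept direction and call, 26 lost and 11 gained a call, and 25 changed sign. The causes were not tested. The number of inhibitor genes called, leaving out each library, was 3 to 4 in set 1, 4 in set 2, 5 between the sets, 5 to 6 in Huh7, and 2 to 4 and 5 to 6 for Huh7 against set 1 and set 2. With upper-quartile scaling the log2 value changed sign for CDKN2C between the sets (−0.0636), CDKN2A in Huh7 (0.0347) and against set 1 (0.0095), and CDKN2B-AS1 in set 1 (−0.0052). With library totals it did so for CDKN2A in set 1 (−8e-04), Huh7 (0.0132) and Huh7 against set 1 (0.0196), CDKN1A (−0.031) and CDKN2C (−0.1034) between the sets, and CDKN2B-AS1 in set 1 (−0.0274), which was −0.0785 with limma voom. Of these, only CDKN1A was called with the main scaling. TGFB1 in set 1 gained a call with library totals (−0.0833, adjusted p = 0.012).

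Leaving out each library in turn, sign changes occurred in CDKN3 in set 1 (−0.2481 to 0.7414) and between the sets (−0.8595 to 0.0322), CDKN1C in set 2 (−0.1508 to 0.6005), CDKN2D in set 2 (−0.1684 to 0.1577), CDKN2A in Huh7 (−0.1052 to 0.0537) and against set 1 (−0.1308 to 0.0175), CDKN2B-AS1 (−0.4916 to 0.3171) and TFDP2 (−0.182 to 0.0038) in set 1, and CDKN2C between the sets (−0.0985 to 0.2439), against set 1 (−1.185 to 0.4129) and against set 2 (−1.141 to 0.4587). None of these was called with all libraries.

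Replicate numbers did not pair the libraries: deviations of same-numbered libraries correlated at −0.0259 to 0.0225 in IMR90 and −0.0524 to −0.0158 in Huh7. With a replicate block, 4, 4, 5 and 6 inhibitor genes were called in set 1, set 2, between the sets and in Huh7, and 2 and 6 in Huh7 against set 1 and set 2, where CDKN1B against set 1 gave 0.25 (adjusted p = 0.056). All genes called with the block numbered 8237, 10317, 10675, 8784, 7762 and 7132 in the same order. Low counts (CDKN1C, CDKN2C and CDKN3 in IMR90, CDKN2C in Huh7) limit what a difference can show.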
